A study of Homo sapiens with 34 samples.

Results

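The clustered protocadherins are a family of adhesion genes that lie in 3 neighbouring groups on the long arm of chromosome 5, PCDHA (alpha), PCDHB (beta) and PCDHG (gamma). Members were all array probes whose gene symbol begins with PCDHA, PCDHB or PCDHG followed by a number or by A, B or C, without the 5 probes to pseudogenes. This gave 96 of the 47230 probes on the array, of which 33 were PCDHA, 23 PCDHB and 40 PCDHG probes. They covered all 53 RefSeq genes of the family (15 PCDHA, 16 PCDHB and 22 PCDHG), among 20046 genes named on the array, and 32 genes had more than 1 probe.

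RNA was measured on Illumina expression arrays in 3 human liver cancer cell lines bought from a public cell bank, HepG2, SNU398 and SNU475. Treated cells had received SGI-110 (guadecitabine), a prodrug of the DNA methyltransferase inhibitor decitabine, at 100 nM once a day for 3 doses, an exposure of 72 h, and were harvested at later days. The treated groups were HepG2 at days 3, 10, 17 and 24, SNU398 at the same 4 days, and SNU475 at days 3, 10, 17, 24, 31 and 56, each against cells of the same line taken before SGI-110. Every one of the 17 groups had 2 arrays, 34 in all, and the labels do not say whether these came from separate cultures, so p-values measure only the spread between these samples. Untreated cells were sampled only at the start, so treatment and time in culture cannot be told apart. The number of arrays limits the precision of every value.

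Clustered protocadherins are single-pass membrane proteins of the cadherin superfamily that bind the same isoform on a neighbouring cell, and neurons use combinations of isoforms to tell themselves from other neurons. In the PCDHA and PCDHG clusters each variable exon has its own promoter and is spliced to constant exons that its cluster shares, while each PCDHB gene is a single exon. CTCF and cohesin loop active promoters to distant enhancers, DNA methylation marks the silent promoters, and the C-type genes PCDHAC1, PCDHAC2, PCDHGC3, PCDHGC4 and PCDHGC5 are controlled differently from the others.

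The promoters of the members that carry the results are shown because most of them share a short element. Windows of 250 bases before to 50 bases after the annotated start, on the + strand of chromosome 5, were taken from RefSeq (GRCh38.p14), and 52 windows for 47 of the 53 genes matched by symbol. The genes without a window were PCDHA3, PCDHA13, PCDHB6, PCDHB11, PCDHGA12 and PCDHGC5. Capitals mark 1 of 3 motifs, ATGTCGCT, GTGGCGCT or GCGCCGCT. The 4 members called higher and above background in SNU475 at day 56 were PCDHB2 (chr5:141094365-141094664), PCDHB5 (chr5:141134956-141135255), PCDHA2 (chr5:140794602-140794901) and PCDHAC2 (chr5:140966226-140966525). PCDHB9 (chr5:141186911-141187210) was the sole member above background in all 17 groups, through 1 of its 2 probes.
PCDHB2: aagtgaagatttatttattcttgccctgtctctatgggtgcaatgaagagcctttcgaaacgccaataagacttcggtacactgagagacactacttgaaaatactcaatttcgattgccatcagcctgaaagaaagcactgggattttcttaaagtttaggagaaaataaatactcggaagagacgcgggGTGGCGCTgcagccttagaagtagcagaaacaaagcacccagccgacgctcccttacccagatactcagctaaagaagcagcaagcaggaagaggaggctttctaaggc
PCDHB5: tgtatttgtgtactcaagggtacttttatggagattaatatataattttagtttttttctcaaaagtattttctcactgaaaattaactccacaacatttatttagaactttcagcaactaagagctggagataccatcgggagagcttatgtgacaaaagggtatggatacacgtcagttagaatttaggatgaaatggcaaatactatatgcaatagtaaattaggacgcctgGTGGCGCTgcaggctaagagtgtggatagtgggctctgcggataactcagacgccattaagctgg
PCDHA2: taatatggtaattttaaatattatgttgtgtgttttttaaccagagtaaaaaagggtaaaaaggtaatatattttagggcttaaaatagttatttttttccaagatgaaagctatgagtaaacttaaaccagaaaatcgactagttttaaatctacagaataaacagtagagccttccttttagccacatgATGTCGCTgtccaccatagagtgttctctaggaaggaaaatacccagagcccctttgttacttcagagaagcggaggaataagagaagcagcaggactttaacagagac
PCDHAC2: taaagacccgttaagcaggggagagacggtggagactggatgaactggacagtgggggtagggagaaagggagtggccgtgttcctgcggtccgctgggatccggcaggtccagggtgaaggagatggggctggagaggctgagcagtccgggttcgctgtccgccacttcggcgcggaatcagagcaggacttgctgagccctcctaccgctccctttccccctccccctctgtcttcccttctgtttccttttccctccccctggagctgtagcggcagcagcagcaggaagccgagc
PCDHB9: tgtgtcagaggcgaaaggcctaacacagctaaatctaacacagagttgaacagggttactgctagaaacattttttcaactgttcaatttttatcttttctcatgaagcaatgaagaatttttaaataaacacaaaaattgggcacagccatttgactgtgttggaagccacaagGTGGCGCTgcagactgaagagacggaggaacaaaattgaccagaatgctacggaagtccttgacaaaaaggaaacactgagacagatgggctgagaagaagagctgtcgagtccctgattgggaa

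The 25 bases around the motif are set beside each other for further members that are named with values, since the 3 clusters differ in the bases before the shared end.
PCDHA1: ggccacatgATGTCGCTgtacacca
PCDHB3: gaacgcatgGTGGCGCTgttgacta
PCDHB8: ggacccgtgGTGGCGCTgcaggata
PCDHB14: agacacatgGTGGCGCTacaggata
PCDHB16: gaacgcgtgGTGGCGCTgcaggtta
PCDHGB5: tgactctggGCGCCGCTgttggcca
PCDHGB6: agcctctggGCGCCGCTgtcggcca

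The motif GTGGCGCT was present on either strand in 13 of 14 PCDHB windows, in 0 of 13 PCDHA windows and in 0 of 25 PCDHG windows, and in 1.15% of all 35116 promoters. ATGTCGCT was in 9 of 13 PCDHA windows, in none of the other 39 family windows and in 0.234% of all promoters. GCGCCGCT was in 13 of 25 PCDHG windows, in none of the others of the family and in 3.17% of all promoters. All 3 motifs contain CGCT and GNCGCT, which were also counted on both strands, so these counts overlap. CGCT was in 51 of 52 family windows against 70% of all promoters, and GNCGCT in 49 of 52 against 44%. The motifs were picked after these windows had been read, and a match describes letters only. In PCDHB2 the motif began 51 bases before the start, and in PCDHB5 7 bases before it. PCDHAC2, a C-type gene, held none of the 3 motifs.

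The family's windows were poor in G and C. Their median GC content was 40.7% over the 52 windows against 58.7% over all promoters, and they held a median of 7.5 CpG dinucleotides against 14. CpG dinucleotides are the sites that DNA methyltransferases methylate. Among the 4 members above background and higher in SNU475 at day 56, the count of CpG dinucleotides in the window was 10 for PCDHB2, 6 for PCDHB5, 3 for PCDHA2 and 15 for PCDHAC2. PCDHAC2 had 63.0% GC, PCDHB2 45.3%, PCDHB5 38.0% and PCDHA2 34.3%.

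All levels are log2 intensities after background correction and quantile normalization, and a difference of 1 on this scale is a doubling. A probe was called above background in a group when both arrays exceeded 6.98, the upper edge of the peak of dim probes. Of the 96 members, 28 probes of 24 genes were above background in at least 1 group and were tested (9 PCDHA, 10 PCDHB and 9 PCDHG probes). The other 68 were in no group above background on both arrays, and 53 of them were above it on no array. Of the tested probes, 3 passed in 1 group only, 24 in 2 to 16 groups, and 1 PCDHB9 probe (ILMN_2047885) in all 17. The other PCDHB9 probe (ILMN_1769859) was above background in no group, and its highest array read 7.11. The untested probes of PCDHA1, PCDHA2, PCDHB3, PCDHB6, PCDHB16 and PCDHGB6 were above it on no array. The results for these genes and PCDHB9 thus rest on 1 probe each. A probe that passed through 1 high group had to differ, so counts over tested probes are read beside the same count over all 29344 probes tested. Probes of this family may bind near-identical relatives, and cross-binding was not tested.

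Replicate arrays correlated at 0.990 to 0.994. The medians of the arrays before normalization fell into 3 sets, 12 arrays of HepG2 and untreated SNU398, another with 12 arrays (SNU398 after treatment, SNU475 at day 3 and before treatment), and another with the 10 arrays of SNU475 from day 10 on. Set and treatment cannot be told apart for treated against untreated SNU398, nor for SNU475 from day 10 on against untreated SNU475. SNU475 at day 56 stood apart from the other SNU475 groups, correlating with them at 0.941 to 0.957, against 0.851 to 0.871 with SNU398 and 0.804 to 0.816 with HepG2. What sets the cells of day 56 apart was not tested, and it cannot be told apart from the day. Of 35 probes high in SNU398 and low in SNU475 to day 31, 23 were above background at day 56 with a median level over the 35 of 7.76, and all 74 probes high in SNU475 to day 31 and low in SNU398 were still above it, with a median level of 10.9 (levels over 10 and under 7, chosen after seeing the values). The 11 hepatocyte markers averaged 7.01 to 7.07 per array in untreated SNU475, 6.84 in untreated SNU398 and 15.30 to 15.31 in untreated HepG2, so the liver identity of both SNU lines was not visible in these markers.

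Few members were expressed, and the counts were highest in SNU398. SNU398 had 16 to 19 of 96 members above background at the treated days, against 16 before treatment. HepG2 had 7 to 9 after treatment, against 10 before it. SNU475 had 6 before treatment, 9, 7, 6, 4 and 8 at days 3, 10, 17, 24 and 31, and 11 at day 56. As shares these were 4.17% to 19.8% of members, while 42.9% to 43.9% of all probes were above background in every group.

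**Figure D1:**
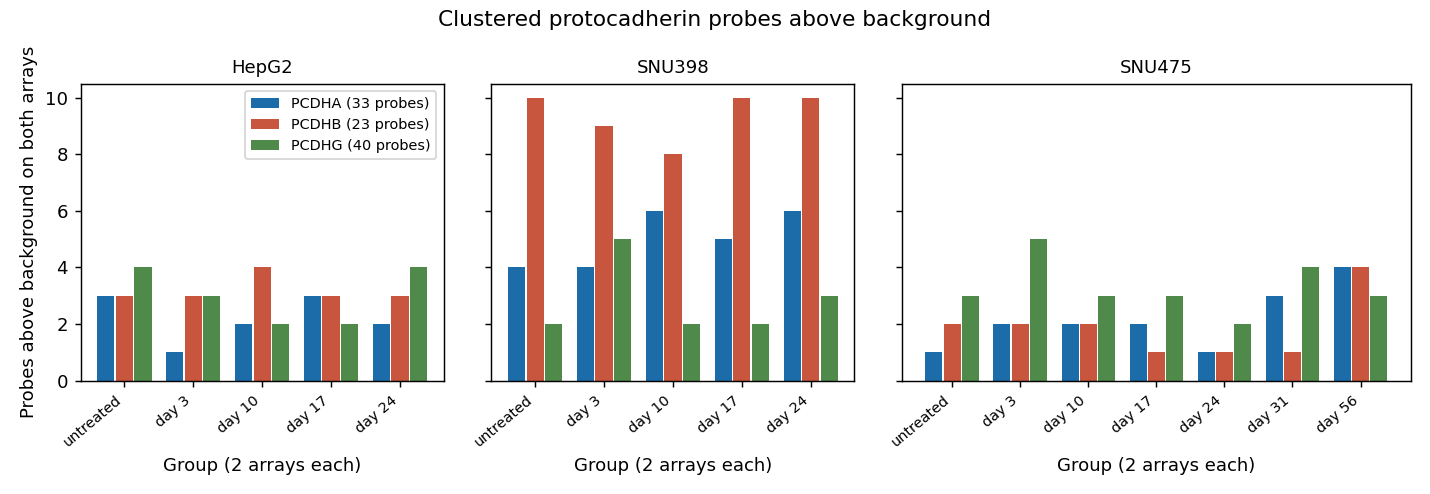
Number of clustered protocadherin probes above background on both arrays, by cluster (PCDHA, PCDHB, PCDHG), in each of the 17 groups. SNU398 groups hold 8 to 10 PCDHB probes and the other lines 1 to 4.

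The clusters divided differently among the lines. In SNU398, 8 to 10 of the 23 PCDHB probes were above background at every day, with 4 to 6 PCDHA and 2 to 5 PCDHG probes. In HepG2 there were 3 or 4 PCDHB probes at every day, 1 to 3 PCDHA and 2 to 4 PCDHG probes. SNU475 had 1 or 2 PCDHB probes to day 31 and 4 at day 56, its PCDHA probes numbered 1 to 3 to day 31 and 4 at day 56, and its PCDHG probes 2 to 5 throughout. The median level of each cluster was between 6.27 and 6.89 in every group, below background, against a median of 6.89 to 6.90 over all probes.

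In untreated cells PCDHB genes separated SNU398 from the other lines. SNU398 expressed PCDHB5, PCDHB3, PCDHB6, PCDHB8 and PCDHB4, none of which was above background in either of the other lines. PCDHB2 was above background in SNU398 on both its probes and in HepG2 on 1 of 2. In SNU475 none of these 6 genes was above background. Levels per array are shown in the plot of untreated cells and SNU475 day 56.

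PCDHB2 (probe ILMN_2227757) stood at 6.46 and 6.50 in untreated SNU475, 11.42 and 11.21 in untreated SNU398 and 10.73 and 10.58 in untreated HepG2. The arrays of the 3 lines did not overlap. Its level was 0.66 ± 0.14 higher in SNU398 than in HepG2 (log2 difference ± SE, limma adjusted p = 0.000201). In SNU475 it was at least 12.8-fold lower than in HepG2 (adjusted p = 1.53e-20) and at least 20.3-fold lower than in SNU398 (adjusted p = 7.01e-22). The second tested probe (ILMN_1683942) was above background in no group of HepG2 or SNU475, so the level in HepG2 rests on 1 probe. With 1 array left out, its call between SNU398 and HepG2 was lost in all 4 fits. Its calls between SNU475 and each other line were kept in all 4. Where 1 group was not above background, "at least" sets the brighter mean against the dim group's mean or the background threshold, whichever is higher.

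PCDHB5 (probe ILMN_1814710) stood at 5.78 and 6.03 in untreated SNU475, 9.91 and 9.78 in untreated SNU398 and 5.94 and 5.73 in untreated HepG2. SNU398 was at least 7.31-fold higher than HepG2 (log2 difference 4.01 ± 0.17, adjusted p = 6.34e-18). PCDHB3 (probe ILMN_1745213) had 6.58 and 6.71 in SNU475, 9.04 and 9.03 in SNU398 and 6.86 and 6.73 in HepG2. The arrays of SNU398 lay above all others for both genes. PCDHB3 was at least 4.17-fold higher in SNU398 than in HepG2 (adjusted p = 3.44e-11), PCDHB6 at least 2.41-fold (adjusted p = 3.11e-09), PCDHB8 at least 1.47-fold (adjusted p = 1.6e-08) and PCDHB4 at least 1.35-fold (adjusted p = 6.16e-07).

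PCDHB9 (probe ILMN_2047885) had 9.46 and 9.55 in untreated SNU475, 9.86 and 9.73 in untreated SNU398 and 9.14 and 9.06 in untreated HepG2. The 3 lines did not overlap, SNU398 being 0.69 above HepG2 (adjusted p = 2.73e-05) and SNU475 0.40 above HepG2 (adjusted p = 0.00787), both log2 differences. The call between SNU475 and HepG2 was lost in 2 of 4 fits with 1 array left out, without replicate 2 of either line.

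In the PCDHA cluster 1 of 3 tested probes of the C-type gene PCDHAC2 differed between all 3 lines. This probe (ILMN_2373592) had 7.77 and 7.54 in untreated SNU475, 8.81 and 8.91 in untreated SNU398, and 6.99 and 6.97 in untreated HepG2, where 1 of 2 arrays was above background. Its arrays in the 3 lines did not overlap. The log2 difference was 1.88 ± 0.17 between SNU398 and HepG2 (adjusted p = 9.83e-11) and 0.68 between SNU475 and HepG2 (adjusted p = 0.00101). The other PCDHAC2 probes, ILMN_1777024 and ILMN_1659773, passed in no comparison of untreated lines. PCDHA2 was at least 1.8-fold higher in SNU398 than in HepG2 (adjusted p = 1.92e-08), and PCDHA1, at 8.18 and 8.24 in SNU398 against 7.41 and 7.14 in HepG2, was 0.94 higher on the log2 scale (adjusted p = 1.46e-05).

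The PCDHG probes called between untreated SNU398 and HepG2 were those of PCDHGB1, PCDHGB3 and PCDHGB6, all lower in SNU398. With 1 array left out, the PCDHGB1 call was lost in all 4 fits and the PCDHGB3 call in 2 of 4. PCDHGB6 (probe ILMN_1701644) had 8.39 and 8.59 in untreated SNU475, 7.92 and 8.15 in untreated SNU398 and 8.73 and 8.75 in untreated HepG2, a log2 difference of -0.71 between SNU398 and HepG2 (adjusted p = 0.0174). That call was lost in 3 of 4 fits with 1 array left out (adjusted p = 0.0296 to 0.121). PCDHGB5 (probe ILMN_1811103) had 7.50 and 7.64 in SNU475, 6.22 and 6.0 in SNU398 and 5.96 and 5.96 in HepG2. It was above background in SNU475 alone among the untreated lines, at least 1.51-fold above HepG2 (adjusted p = 7.72e-10) and at least 1.51-fold above SNU398 (adjusted p = 5.02e-09).

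**Figure D2:**
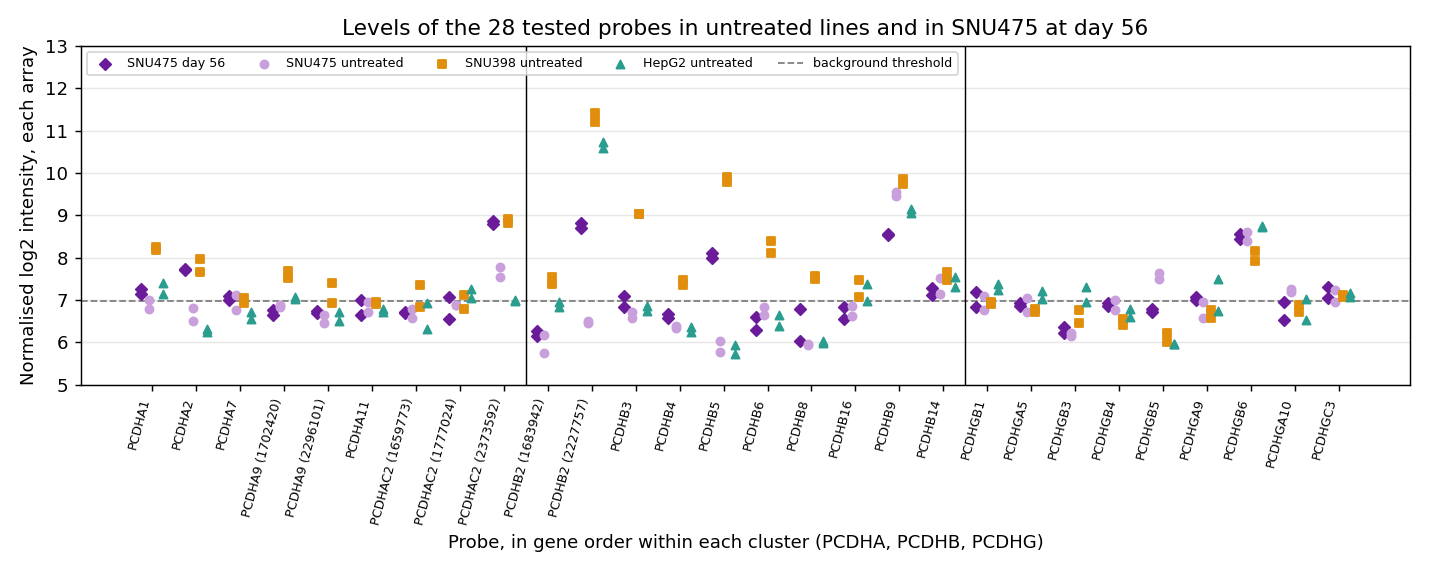
Log2 level of the 28 tested probes in gene order on each array of SNU475 at day 56 and of untreated SNU475, SNU398 and HepG2, with the background threshold of 6.98 as a dashed line. SNU398 lies above the line for PCDHB2, PCDHB3, PCDHB4, PCDHB5, PCDHB6 and PCDHB8, and SNU475 at day 56 for PCDHB2 and PCDHB5.

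Over the 28 tested members, 13 were higher and 3 lower in untreated SNU398 than in untreated HepG2, where 49.7% of all probes passed (26.7% higher and 23% lower). All 13 were PCDHA (5) or PCDHB (8) probes and all 3 lower ones were PCDHG probes. Each of these 3 lower calls was lost in at least 2 of 4 fits with 1 array left out. The PCDHB4, PCDHB6, PCDHB8 and second PCDHB2 (ILMN_1683942) probes passed the filter only through SNU398 groups, and PCDHGB3 only through HepG2 groups. The filter thus partly set their direction, so these counts and the median that follows do not test a cluster pattern. The median log2 difference was 0.41 over the members and 0.01 over all probes. SNU475 against HepG2 gave 3 higher and 5 lower (51.1% of all probes passed, 25.3% higher and 25.8% lower), with medians of -0.07 and -0.02. Here too the filter partly set the direction. PCDHGB5, among the higher, passed it only through SNU475 groups, and PCDHGB3, among the lower, only through HepG2 groups. SNU475 against SNU398 gave 1 higher, PCDHGB5, and 14 lower (52.1% of all probes passed, 23.9% higher and 28.2% lower), with medians of -0.41 and -0.04. The filter bears on this comparison too. PCDHGB5 passed it only through SNU475 groups. PCDHB4, PCDHB6, PCDHB8, PCDHB16 and the second PCDHB2 probe, all among the 14 lower, passed only through SNU398 groups. Untreated SNU475 was on another set of arrays than the other untreated lines, so line and set cannot be told apart for it.

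Against untreated cells, the 14 treated groups gave 34 calls in 392 tests on members, 8.67%, against 20.1% of all tests on all probes. Of the 28 probes, 15 were called at least once. PCDHB9 was called in 7 comparisons and PCDHB14 in 4. With each of the 4 arrays of its comparison left out in turn, 10 of 12 calls in SNU475 kept the threshold in all fits, as did 2 of 11 in SNU398 and 2 of 11 in HepG2. The calls of PCDHB2, PCDHB5, PCDHAC2, PCDHA2, PCDHB9 and PCDHGB5 in SNU475 were among those kept. The heat map of differences gives all 14 groups side by side.

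**Figure D3:**
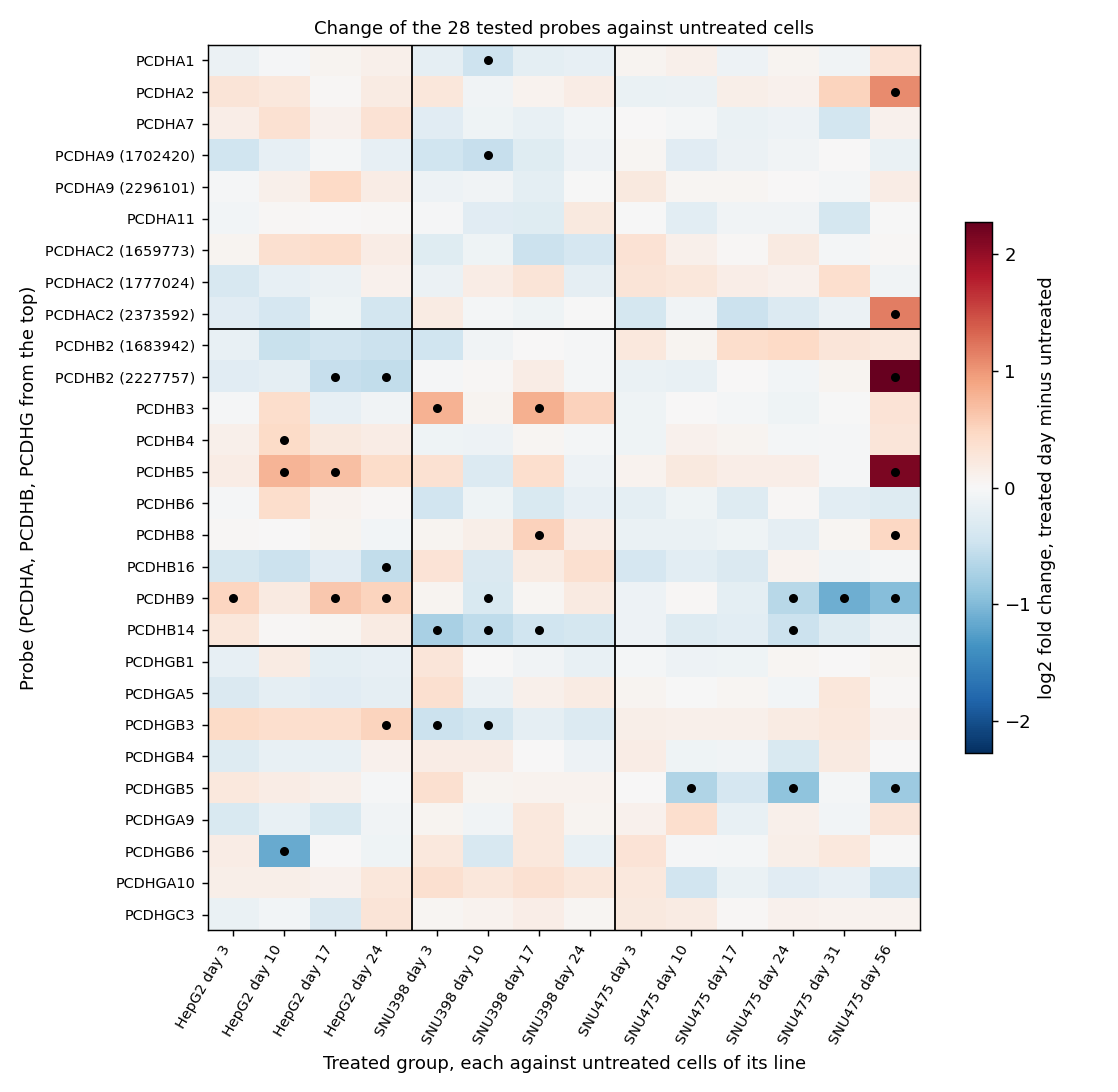
Log2 difference between each of the 14 treated groups and untreated cells of the same line for the 28 tested probes in gene order, with a black dot where the limma adjusted p was under 0.05. In SNU475 at day 56 PCDHB2 is at 2.28 and PCDHB5 at 2.15, both against untreated levels below background, and PCDHGB6 in HepG2 at day 10 is at -1.14.

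At day 56 SNU475 expressed PCDHB2, PCDHB5 and PCDHA2, which were below background in untreated SNU475, and more PCDHAC2, while PCDHB9 and PCDHGB5 were lower. Of the 28 members, 5 were called higher and 2 lower, while 39.4% of all probes passed, 18% higher and 21.4% lower. The median log2 difference was 0.07 over members and -0.04 over all probes.

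PCDHB2 had 8.82 and 8.70 at day 56 against 6.46 and 6.50 in untreated SNU475, and its arrays at days 3 to 31 lay between 6.20 and 6.67. The day 56 arrays were apart from all the others of the line. The log2 difference was 2.28 ± 0.14 (adjusted p = 9.97e-14), and the level was at least 3.44-fold higher. The second tested PCDHB2 probe (ILMN_1683942) read 6.14 and 6.27 at day 56 against 5.75 and 6.17 untreated, below background in both, and was not called.

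PCDHB5 had 8.11 and 7.99 at day 56 against 5.78 and 6.03 in untreated SNU475 and was at least 2.1-fold higher (log2 difference 2.15 ± 0.17, adjusted p = 3.74e-11). At day 31 it read 6.0 and 5.74, not above background. PCDHA2 (probe ILMN_1656033) had 7.71 and 7.74 at day 56 against 6.81 and 6.49 untreated, at least 1.68-fold higher (log2 difference 1.07 ± 0.18, adjusted p = 1.5e-05). PCDHA2 was also above background at day 31, with 7.12 and 7.20.

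PCDHAC2, whose product in mice is needed for the even spacing of serotonergic axons, had 8.80 and 8.86 at day 56 against 7.77 and 7.54 in untreated SNU475. The arrays at days 3 to 31 lay between 7.04 and 7.69. The rise was 2.25-fold (log2 difference 1.17 ± 0.17, adjusted p = 1.49e-06). The gene's other tested probes did not share it, ILMN_1777024 reading 6.55 and 7.06 at day 56 against 6.88 and 6.88 untreated, and ILMN_1659773 reading 6.70 and 6.70 against 6.78 and 6.57.

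PCDHB8 was the fifth probe called higher at day 56, with 6.04 and 6.78 against 5.93 and 5.95, below background in both groups (adjusted p = 0.0324). That call was lost in 3 of 4 fits with 1 array left out, and without day 56 replicate 2 the difference was 0.10 (adjusted p = 0.721). PCDHB9 had 8.53 and 8.55 at day 56 against 9.46 and 9.55 in untreated SNU475, 1.95-fold lower (log2 difference -0.96 ± 0.12, adjusted p = 3.05e-07). PCDHGB5 had 6.70 and 6.78 at day 56 against 7.50 and 7.64 untreated and was at least 1.51-fold lower (adjusted p = 8.95e-05). For PCDHB9 and PCDHGB5 the day 56 arrays lay below both untreated arrays.

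Of the 16 probes above background in untreated SNU398, 5 were called higher and 1 lower in SNU475 at day 56. These were all 5 higher calls, PCDHB8 among them. Of the 10 probes above background in untreated HepG2, 1 was higher and 1 lower. Over all probes 18% were higher and 21.4% lower, and the overlap was not tested. PCDHB3 and PCDHB6, also expressed in SNU398, were not called. PCDHB3 read 7.09 and 6.83 in SNU475 at day 56 against 6.58 and 6.71 in untreated SNU475 and was not called, and PCDHB6 read 6.60 and 6.28 against 6.82 and 6.64. Both genes were above background in SNU398 at every day.

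Markers of other cell types also differed from untreated cells at day 56, where 39.4% of all probes passed. Of 8 mesenchymal markers, 6 were higher and 1 lower, with a median log2 difference of 1.21 against -0.04 over all probes. Their mean per array was 12.69 to 12.70 at day 56 against 10.92 in untreated SNU475. It already lay between 11.42 and 11.86 at days 3 to 31. THY1, a surface glycoprotein of fibroblasts and neurons, was 5.49 ± 0.15 higher on the log2 scale (12.50 against 7.01). Of 13 neuron markers, 4 were higher and 3 lower (median 0.15), and the mean per array was 8.51 to 8.61 against 8.17 to 8.24. STMN2, a regulator of neuronal microtubules, was 4.39 ± 0.20 higher (11.35 against 6.96, with 1 of 2 untreated arrays above background). A rise of that size in 1 gene can carry most of such a mean, so the mean does not show a shared shift of the neuron markers. Of 11 hepatocyte markers, 2 were higher and 1 lower (6.96 to 7.04 against 7.01 to 7.07, median -0.07), and of 4 blood markers 1 was higher and 1 lower (median 0.10). The part of these shifts in the members' changes was not tested, and in bulk RNA fewer cells of a type and less RNA per cell cannot be told apart.

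Within the set of arrays from day 10 on, day 56 differed from earlier treated days for the same 4 genes. Against day 10, 5 members were higher and 1 lower at day 56 (37.2% of all probes passed, 16.7% higher and 20.4% lower), among them PCDHB2 at least 3.44-fold (log2 difference 2.45 ± 0.14), PCDHB5 at least 2.1-fold (1.92 ± 0.17), PCDHA2 at least 1.68-fold (1.21 ± 0.18) and PCDHAC2, above background on both sides, 2.38-fold (1.25 ± 0.17). Against day 31, 5 were higher and 2 lower (36.7% of all probes passed, 16.5% higher and 20.2% lower), with PCDHB2 at least 3.44-fold higher (log2 difference 2.22, adjusted p = 2.4e-13), PCDHB5 at least 2.1-fold (2.18, adjusted p = 3.49e-11) and PCDHAC2 2.47-fold (1.30, adjusted p = 3.15e-07). A second PCDHAC2 probe, ILMN_1777024, was called in the opposite direction against day 31, at -0.46 (adjusted p = 0.028). PCDHA2 differed by 0.56 (adjusted p = 0.0134), and PCDHA7 was at least 1.05-fold higher at day 56 than at day 31 (adjusted p = 0.0173). These 3 calls were lost in 2 or 3 of 4 fits with 1 array left out.

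**Figure D4:**
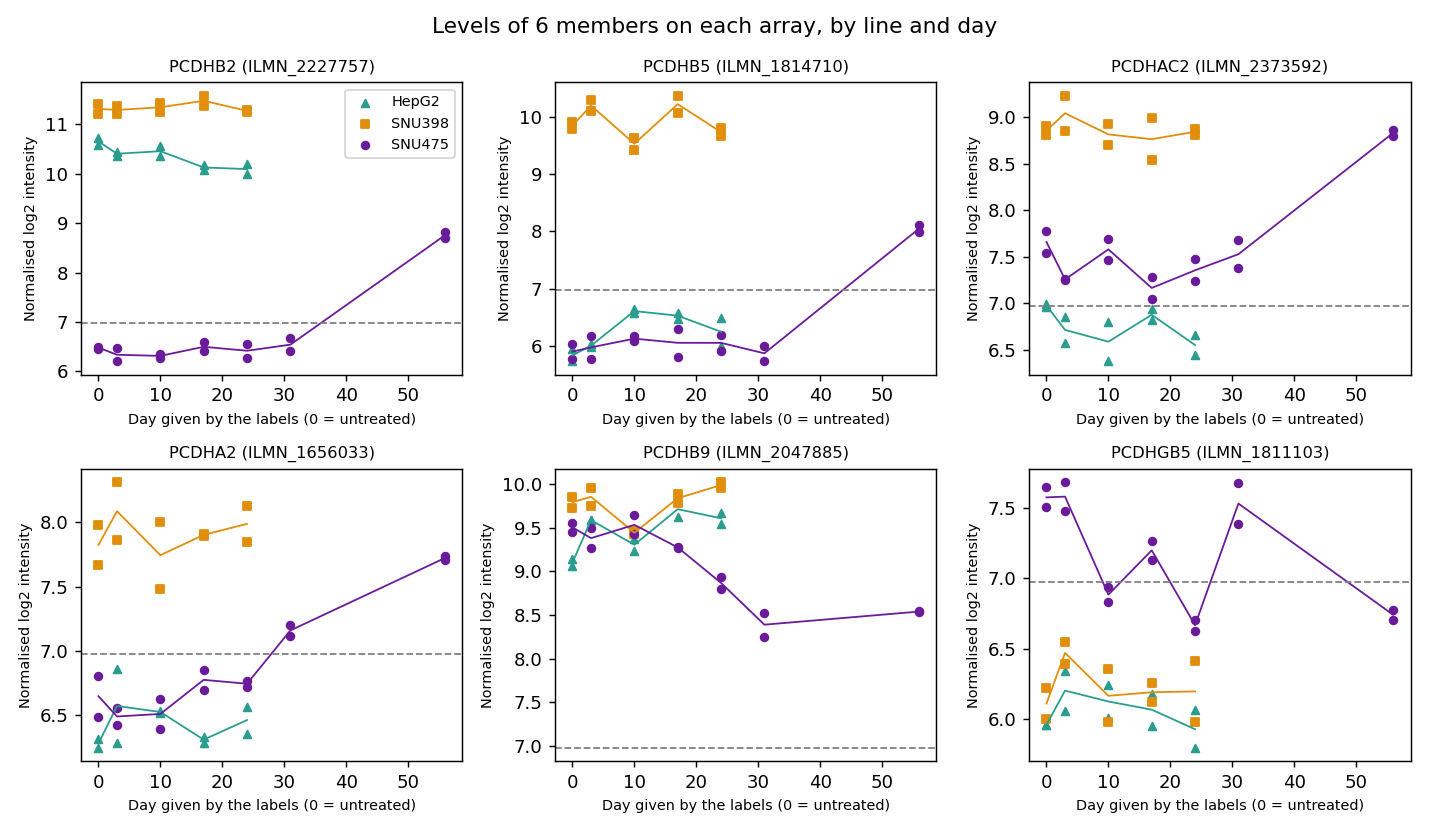
Log2 level of PCDHB2, PCDHB5, PCDHAC2, PCDHA2, PCDHB9 and PCDHGB5 on every array of SNU475, SNU398 and HepG2 against the day given by the labels (0 is untreated), lines joining the group means and the dashed line at 6.98 marking background. PCDHB2 and PCDHB5 of SNU475 leave the background at day 56 and PCDHB9 of SNU475 is lowest at days 31 and 56.

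Before day 56, SNU475 members changed little apart from PCDHB9 and PCDHGB5. At days 3 and 17, 0 of 28 passed limma's adjusted test (2.21% and 10.3% of all probes did), with 1 and 2 members at an unadjusted p under 0.05. At day 10, 1 member was lower (14.9% of all probes passed, 7.93% higher and 6.96% lower). At day 24, 3 were lower (27.1%, 13.7% higher and 13.3% lower), and 5 of 8 mesenchymal markers were higher and 2 lower. At day 31, 1 member was lower (11.1%, 5.55% higher and 5.55% lower).

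PCDHB9 fell over the later days of SNU475. Its levels were 9.46 and 9.55 untreated, 9.49 and 9.27 at day 3, 9.43 and 9.64 at day 10, 9.28 and 9.27 at day 17, 8.94 and 8.80 at day 24, 8.53 and 8.25 at day 31, and 8.53 and 8.55 at day 56. The arrays from day 24 on lay below every earlier one. The log2 difference from untreated cells was -0.64 ± 0.12 at day 24 (adjusted p = 0.000266) and -1.11 ± 0.12 at day 31 (adjusted p = 1.43e-07). Against day 10, on the same set of arrays, it was -0.67 at day 24 (adjusted p = 0.000708) and -1.14 at day 31 (adjusted p = 6.33e-08).

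PCDHGB5 varied between the days. It had 7.50 and 7.64 in untreated SNU475, 7.68 and 7.48 at day 3, 6.83 and 6.93 at day 10, 7.13 and 7.27 at day 17, 6.63 and 6.70 at day 24, 7.68 and 7.38 at day 31 and 6.70 and 6.78 at day 56. It was below background at days 10, 24 and 56, at least 1.51-fold below untreated cells at each (adjusted p = 0.00262 at day 10 and 6.63e-05 at day 24), and at day 31 at least 1.47-fold above day 10 (adjusted p = 0.00337). The call between days 31 and 10 was lost without day 31 replicate 1 (0.50, adjusted p = 0.0800). PCDHB14 fell by 0.49 on the log2 scale at day 24, with 1 of 2 treated arrays above background (adjusted p = 0.0192), and that call was lost in 2 of 4 fits (adjusted p up to 0.298). PCDHA2 at day 31 was at least 1.14-fold above day 10 (adjusted p = 0.00858), a call lost without day 10 replicate 1 (0.53, adjusted p = 0.112) or day 31 replicate 2 (0.61, adjusted p = 0.0660).

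Over the treated days of SNU475, day 24 against day 10 gave 1 member lower, PCDHB9 (8.49% of all probes passed, 3.9% higher and 4.59% lower), and day 31 against day 10 gave 2 higher and 1 lower (22.1%, 11% higher and 11.2% lower). Day 17 against day 10 gave 0 calls by limma (0.283% of all probes passed), with 3 members at an unadjusted p under 0.05.

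In HepG2, PCDHB9 was higher after SGI-110 at 3 of 4 days and PCDHB2 lower at days 17 and 24. At day 3, 1 member was higher (10.9% of all probes passed, 6.08% higher and 4.79% lower), and at day 10, 2 were higher and 1 lower (27.3%, 14.2% higher and 13.1% lower). At day 17, 2 were higher and 1 lower (21.5%, 11.1% higher and 10.4% lower), and at day 24, 2 were higher and 2 lower (20.5%, 10.5% higher and 9.95% lower). Medians over members were -0.02, 0.03, 0.02 and 0.06 at days 3, 10, 17 and 24. The 4 tested blood markers averaged 11.05 to 11.19 per array at day 3, 11.33 to 11.36 at day 10, 10.96 to 10.98 at day 17 and 10.85 to 10.98 at day 24, against 10.29 to 10.39 in untreated HepG2. Higher calls among them numbered 2, 2, 2 and 1 at these days and lower calls 0, 1, 1 and 1, and their part in the members' changes was not tested. CD14 was among these blood markers and is also counted with the chromosome 5 neighbours, where its rise at day 10 is given. A mean over 4 markers can rest largely on 1 gene, and at day 10 most of the rise in this mean was that of CD14.

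PCDHB9 had 9.14 and 9.06 in untreated HepG2, 9.59 and 9.59 at day 3, 9.24 and 9.38 at day 10, 9.81 and 9.62 at day 17 and 9.55 and 9.67 at day 24. Every treated array was above both untreated ones, and the difference passed at day 3 (0.49 ± 0.12, adjusted p = 0.01), day 17 (0.61 ± 0.12, adjusted p = 0.00055) and day 24 (0.51 ± 0.12, adjusted p = 0.00369). The day 3 call was lost without untreated replicate 2 or without day 3 replicate 1, which left 0 calls by limma, and the day 24 call without day 24 replicate 2 (0.45, adjusted p = 0.0536). PCDHB2 had 10.73 and 10.58 in untreated HepG2, 10.45 and 10.36 at day 3, 10.56 and 10.36 at day 10, 10.18 and 10.08 at day 17 and 10.20 and 9.99 at day 24. All its treated arrays lay below both untreated ones. Its difference was -0.53 ± 0.14 at day 17 (adjusted p = 0.00613) and -0.56 ± 0.14 at day 24 (adjusted p = 0.00389), the day 17 value missed the threshold without untreated replicate 1 (-0.45, adjusted p = 0.0749) or day 17 replicate 2 (-0.48, adjusted p = 0.0591), and the day 24 value missed it without untreated replicate 1 (-0.49, adjusted p = 0.0574) or without day 24 replicate 2 (-0.46, adjusted p = 0.0748).

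PCDHB5 read 6.64 and 6.58 at day 10 and 6.47 and 6.58 at day 17 against 5.94 and 5.73 in untreated HepG2, all below background (adjusted p = 0.001 and 0.00379), the day 17 call being lost without untreated replicate 2 (adjusted p = 0.0579). PCDHB4 at day 10 was likewise below background in both groups (6.92 and 6.54 against 6.35 and 6.24, adjusted p = 0.0394), and its call was lost in 3 of 4 fits (adjusted p up to 0.407). No fold is given for these. PCDHGB6 read 8.27 and 6.93 at day 10 against 8.73 and 8.75 untreated, with 1 of 2 treated arrays above background (-1.14 ± 0.25, adjusted p = 0.000673). That call rested on 1 array, as without day 10 replicate 2 the difference was -0.47 (adjusted p = 0.109).

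At day 24 of HepG2, PCDHGB3 had 7.76 and 7.53 against 7.29 and 6.96 untreated (0.52 ± 0.16, adjusted p = 0.0179), and PCDHB16 6.61 and 6.63 against 6.97 and 7.38 (-0.56 ± 0.19, adjusted p = 0.04), each with 1 untreated array above background. The PCDHGB3 call was lost without untreated replicate 2 (0.35, adjusted p = 0.23) or without day 24 replicate 1 (0.40, adjusted p = 0.176), and that of PCDHB16 in 3 of 4 fits (adjusted p up to 0.344). Day 10 against day 3 gave 1 higher, PCDHB5, and 1 lower, PCDHGB6 (21.9% of all probes passed, 11.5% higher and 10.4% lower). Days 17 and 24 against day 3 gave 0 calls by limma, where 6.99% and 11.3% of all probes passed, with 3 members at an unadjusted p under 0.05 in each.

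In SNU398, PCDHB3 was higher at days 3 and 17 and PCDHB14 lower at days 3, 10 and 17, while PCDHB2 and PCDHB5 passed the test at no day against untreated cells. At day 3, 1 member was higher and 2 lower (26.4% of all probes passed, 13.3% higher and 13.1% lower), and at day 10, 0 were higher and 5 lower (27.9%, 14.3% higher and 13.6% lower). At day 17, 2 were higher and 1 lower (27.4%, 14% higher and 13.4% lower), and at day 24, 0 passed by limma (14.9%), with 2 members at an unadjusted p under 0.05. Medians over members were 0.05, -0.09, 0.04 and -0.04 at days 3, 10, 17 and 24. The 8 mesenchymal markers averaged 8.95 to 8.98 per array at day 3, 9.27 to 9.31 at day 10, 9.14 to 9.21 at day 17 and 9.03 to 9.04 at day 24, against 8.69 to 8.71 in untreated SNU398. Higher calls among them numbered 3, 5, 4 and 4 at these days and lower calls 0 by limma, and their part in the members' changes was not tested.

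PCDHB3 had 9.04 and 9.03 in untreated SNU398, 9.86 and 9.79 at day 3, 9.18 and 9.02 at day 10, 9.60 and 10.09 at day 17 and 9.50 and 9.63 at day 24. The arrays of days 3, 17 and 24 lay above the untreated ones and those of day 10 overlapped them. The difference was 0.79 ± 0.19 at day 3 (adjusted p = 0.0023) and 0.81 ± 0.19 at day 17 (adjusted p = 0.00164), and at day 17 it missed the threshold without day 17 replicate 2 (0.57, adjusted p = 0.0726). PCDHB14 had 7.65 and 7.47 untreated, 6.88 and 6.77 at day 3, 6.89 and 7.07 at day 10, 7.16 and 7.03 at day 17 and 7.17 and 7.15 at day 24. All its treated arrays lay below the untreated ones. It was at least 1.5-fold lower at day 3 (adjusted p = 0.000812), with differences of -0.58 at day 10 (adjusted p = 0.00593) and -0.46 at day 17 (adjusted p = 0.0297). The day 3 call was kept with each array left out, the day 10 call was lost in 2 of 4 fits (adjusted p up to 0.0776) and the day 17 call in 3 of 4 (adjusted p up to 0.198).

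PCDHB8 had 7.96 and 8.15 at day 17 against 7.57 and 7.50 untreated (0.52 ± 0.18, adjusted p = 0.026), a call lost in 3 of 4 fits with 1 array left out (adjusted p up to 0.178). At day 10, PCDHA1 had 7.93 and 7.55 against 8.18 and 8.24 (-0.47, adjusted p = 0.029), PCDHA9 (probe ILMN_1702420) 7.0 and 7.15 against 7.67 and 7.52 (-0.52, adjusted p = 0.0219), and PCDHB9 9.46 and 9.42 against 9.86 and 9.73 (-0.35, adjusted p = 0.0354). PCDHGB3 was below background in both groups at days 3 and 10 (adjusted p = 0.0189 and 0.0491). With 1 array left out, the day 10 call of PCDHA1 was lost in 3 of 4 fits, at -0.28 (adjusted p = 0.335) without day 10 replicate 2, and also under median scaling of the arrays (-0.30, adjusted p = 0.16). That of PCDHA9 was lost in 2 of 4 fits (adjusted p up to 0.149) and under median scaling (adjusted p = 0.0661). That of PCDHB9 was lost in all 4 (adjusted p up to 0.202), and those of PCDHGB3 in 2 of 4 at each day. The day 10 calls numbered 0 by limma without untreated replicate 1, and 2 or 3 without any other array of the comparison.

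Day 10 stood below day 3 in SNU398 for 5 members, which lie on the same set of arrays (26.4% of all probes passed, 13.5% higher and 13% lower, and the median over members was -0.09). PCDHB3 differed by -0.72 (adjusted p = 0.00456), PCDHB5 by -0.67 (adjusted p = 0.00421), PCDHB16 by -0.65 (adjusted p = 0.0122) and PCDHB9 by -0.41 (adjusted p = 0.014), and PCDHGA5 was at least 1.1-fold lower (adjusted p = 0.0428). PCDHB5 had 9.63 and 9.43 at day 10 against 10.10 and 10.29 at day 3. None of these calls was kept in every fit with 1 array left out. The call of PCDHGA5 was lost in all 4 fits and that of PCDHB9 in 3 of 4. Those of PCDHB16 and PCDHB5 were lost in 2 of 4, and that of PCDHB3 in 1 of 4. Days 17 and 24 against day 3 gave 0 calls by limma (4.7% and 12.6% of all probes passed), with 3 members at an unadjusted p under 0.05 in each.

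The mean effect over days 3, 10, 17 and 24 was compared between lines. The difference SNU398 minus HepG2 passed for 4 members (28.7% of all probes passed), SNU475 minus HepG2 for 2 (19.2%) and SNU475 minus SNU398 for 3 (28.6%). PCDHB9 had a mean effect of -0.24 in SNU475, -0.01 in SNU398 and 0.45 in HepG2. PCDHGB5 had -0.49 in SNU475, 0.14 in SNU398 and 0.12 in HepG2. PCDHB3 had -0.06 in SNU475, 0.55 in SNU398 and 0.03 in HepG2. PCDHGB5 was above background in no group of HepG2 or SNU398, and PCDHB3 in no group of SNU475. In SNU398 all 4 treated days were on another set of arrays than the untreated cells, and in SNU475 3 of 4 were, so line and set cannot be told apart here.

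Of the 13 C-type probes, 4 were tested. PCDHAC1 and PCDHGC5 were above background on none of the 34 arrays, each on 2 probes, and PCDHGC4, known in mice for the survival of interneurons, on 3 readings over its 2 probes. PCDHGC3, which in mice promotes dendrite branching, had 1 of 3 probes (ILMN_1675428) above background in 12 groups. It read 7.06 and 7.29 in SNU475 at day 56 against 7.24 and 6.96 untreated, and it passed against untreated cells at no day in any line.

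Genes known to act on the clusters were counted from lists, here as calls beside the shares of all probes called, 39.4% in SNU475 at day 56, 27.3% in HepG2 at day 10, and 26.4% and 27.4% in SNU398 at days 3 and 17. Of 13 genes of CTCF and cohesin, which hold the promoter loops, 1 was higher and 3 lower in SNU475 at day 56 (median 0.06), with CTCF at -0.67 ± 0.13 (adjusted p = 0.000152) and STAG1 at -0.61, while HepG2 at day 10 had 1 higher and 0 lower. SNU398 had 3 higher and 1 lower at day 3 and 4 higher and 0 lower at day 17. CTCFL, a testis paralogue of CTCF, was at least 12.3-fold higher in SNU398 at day 3 (adjusted p = 3.92e-18) and at least 22.4-fold higher at day 17 (adjusted p = 6.17e-20), and below background in SNU475 at day 56.

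Of 14 repressors of clustered protocadherins, 1 was higher and 5 lower in SNU475 at day 56 (median -0.13, against 39.4% of all probes called). HepG2 at day 10 had 2 higher and 6 lower, and SNU398 at day 3 had 6 higher and 1 lower. In SNU475 their mean per array was 8.54 to 8.57 at day 56 against 8.74 to 8.76 untreated. It already lay between 8.55 and 8.68 at days 10, 17 and 24. PCDHB2, PCDHB5 and PCDHA2 were not called against untreated cells at those days. The mean was 8.69 to 8.74 at day 3 and 8.83 to 8.87 at day 31. The part of the repressors in the members' changes was not tested. HELLS, a chromatin remodeller needed for DNA methylation, was at -0.97 ± 0.13 in SNU475 at day 56 (adjusted p = 9.24e-07), at -1.82 ± 0.13 in HepG2 at day 10 (adjusted p = 1.39e-11) and at 1.28 ± 0.13 in SNU398 at day 3 (adjusted p = 3.31e-08). UHRF1, which guides DNMT1 to replicated DNA, was at -0.67 ± 0.14 in SNU475 at day 56 and -2.40 ± 0.14 in HepG2 at day 10. SMCHD1, which represses the clusters in mice, read 7.11 at day 56 against 7.44 untreated and was not called (adjusted p = 0.111).

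The non-clustered protocadherins lie elsewhere in the genome and have promoters of their own. Of 9 tested genes, 3 were higher and 0 lower in SNU475 at day 56 (median 0.02, against 39.4% of all probes called), PCDH18 at least 6.62-fold (adjusted p = 2.07e-14), PCDH7 at least 3.89-fold (adjusted p = 1.47e-11) and DCHS1 at least 1.84-fold. SNU398 had 2 higher and 0 lower at day 3 and 3 higher and 3 lower at day 17, with PCDH7 at 1.82 ± 0.17 (adjusted p = 4.12e-09) and 2.33 ± 0.17 (adjusted p = 2.52e-11). Of 9 classical cadherins and catenins, 3 were higher and 5 lower in SNU475 at day 56 (median -0.41), with CDH11 at least 13.2-fold higher and CDH2 at -1.17. Of 15 binding partners and signalling genes, 1 was higher and 1 lower there (median 0.01).

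Genes that flank the clusters on chromosome 5 moved in both directions at day 56. Of 26 neighbours, 6 were higher and 9 lower in SNU475 at day 56 (median -0.14, against 39.4% of all probes called), with ARAP3 at 1.33 and DIAPH1 at -1.0. HepG2 at day 10 had 7 higher and 2 lower, with CD14, an innate immune receptor, 3.76 ± 0.14 higher (adjusted p = 7.19e-18). SNU398 had 5 higher and 1 lower at day 3 and 7 higher and 1 lower at day 17. TAF7, a transcription factor subunit gene between the PCDHB and PCDHG clusters, read 10.12 in SNU475 at day 56 against 10.36 untreated (adjusted p = 0.221).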

How the data were processed

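Expression was measured on 34 Illumina arrays, 2 for each of 17 groups, from biotin-labelled cRNA per the labels. The values used are the deposited linear intensities per probe from the table whose columns name the samples. No source used here names the steps by which the authors normalized them. A further 72 columns of values could not be tied to samples and were not used. Intensities were corrected with normexp (offset 50), quantile normalized and put on a log2 scale in limma 3.58.1 (R 4.3.3). The mode of dim probes was 6.48 with a spread of 0.30, which set the background threshold of 6.98. Of 47230 probes, 29344 were above it on both arrays of at least 1 group and were tested. Of all probes, 30113 had 1 gene symbol, 8 several and 17109 none. One model of 17 group means with empirical Bayes moderation gave 30 planned comparisons and 1 added after seeing the data, with two-sided p-values adjusted by Benjamini-Hochberg over all tested probes and called under 0.05. The script was tested on simulated data. Days of 1 line share their untreated arrays. The members and all lists were chosen with earlier results of these data known. The lists were CTCF and cohesin, repressors, non-clustered protocadherins, classical cadherins and catenins, binding partners and signalling, neighbouring genes, and neuron, hepatocyte, mesenchymal and blood markers.

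Genes named in full were, per line and cluster, up to 3 members with the largest called change and both treated arrays outside the untreated range, the C-type members, the highest member per cluster and untreated line, and genes whose probes disagreed. Other genes are counts with the 2 largest changes as examples, and further genes (SMCHD1, UHRF1, TAF7, PCDH7 and the members named beyond the rule) were chosen after their values were seen. Alternatives were the background correction, the scaling, the filter on dim probes, the deposited intensities as they stand, fits per line, 1 probe per gene, a replicate block and each array left out. Figures were drawn with matplotlib 3.10.9.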

Additional observations from a re-analysis of the deposited data

Results flagged for a closer look

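The effect of treatment, averaged over days 3, 10, 17 and 24, differed between lines for the following members by limma's test of the difference, log2 values with SE. For SNU398 minus HepG2, PCDHB2 gave 0.42 ± 0.16 (adjusted p = 0.0435), PCDHB9 -0.46 ± 0.14 (adjusted p = 0.0128), PCDHB14 -0.67 ± 0.18 (adjusted p = 0.00459) and PCDHGB3 -0.79 ± 0.17 (adjusted p = 0.00105). For SNU475 minus HepG2, PCDHB9 gave -0.69 ± 0.14 (adjusted p = 0.000553) and PCDHGB5 -0.61 ± 0.18 (adjusted p = 0.0138). For SNU475 minus SNU398, PCDHB3 gave -0.61 ± 0.21 (adjusted p = 0.0303), PCDHGB3 0.49 ± 0.17 (adjusted p = 0.0347) and PCDHGB5 -0.64 ± 0.18 (adjusted p = 0.00703). PCDHGB3 was below background in both SNU lines, so both of its differences rest on dim signals. PCDHGB5 was above background in no group of HepG2 or SNU398, and PCDHB3 in no group of SNU475. Their differences thus also set a line with signal against a line where the probe was dim.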

How the results depend on the processing

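Each array, 2 per group, and the weak signal of most members limit these counts, since 68 of 96 probes were dim in every group. Values in brackets are the counts as reported, and the cause of each move was not tested unless it is stated. Testing only probes above background on all 34 arrays leaves PCDHB9 as the sole member tested, so the counts are small by construction, with HepG2 0, 1 and 1 at days 10, 17 and 24 (3, 3 and 4), SNU398 0, 1 and 0 at days 3, 10 and 17 (3, 5 and 3), and SNU475 0, 1 and 1 at days 10, 24 and 56 (1, 3 and 7). It gave 1, 1 and 1 for the untreated lines (16, 8 and 15), 1, 1 and 0 for differences between lines (4, 2 and 3), 0, 1 and 3 for later days in HepG2, SNU398 and SNU475 (2, 5 and 10), and 7 over all treated groups (34). With the deposited intensities as they stand, SNU398 gave 5, 5 and 3 at days 3, 17 and 24 (3, 3 and 0), SNU475 3, 6, 6 and 5 at days 10, 17, 24 and 31 (1, 0, 3 and 1), differences between SNU475 and HepG2 4 (2) and between SNU475 and SNU398 6 (3), later days 4 in HepG2 (2) and 10 in SNU398 (5), and all treated groups 58 (34). With each line fitted on its own, HepG2 gave 2 at day 24 (4), SNU398 5, 2 and 1 at days 3, 10 and 24 (3, 5 and 0), and SNU475 1 and 2 at days 17 and 31 (0 and 1). With median scaling, SNU398 gave 2 and 2 at days 10 and 24 (5 and 0), SNU475 2 and 2 at days 17 and 31 (0 and 1), and SNU475 against SNU398 effects 5 (3). Without background correction SNU398 gave 2 at day 24 (0). Without the filter SNU398 gave 5 and 2 at days 3 and 24 (3 and 0), SNU475 against SNU398 effects 5 (3), and later days in HepG2 4 (2). With 1 probe per gene, and with the stricter background threshold, HepG2 gave 2 at day 3 (1), SNU398 1 at day 24 (0), and SNU475 1 and 2 at days 17 and 31 (0 and 1). Leaving out each array in turn gave 26 to 37 calls over all treated groups, 0 to 2, 3 to 4 and 1 to 3 in HepG2 at days 3, 10 and 24, 2 to 5, 0 to 3 and 1 to 3 in SNU398 at days 3, 10 and 17, and 2 to 3, 1 to 2 and 6 to 8 in SNU475 at days 24, 31 and 56. For untreated lines it gave 11 to 15, 6 to 8 and 12 to 16, for differences between lines 2 to 6, 1 to 3 and 0 to 4, and for later days in HepG2, SNU398 and SNU475 1 to 3, 3 to 5 and 9 to 11. The call of PCDHA1 in SNU398 at day 10 was lost under median scaling (adjusted p = 0.16), and that of PCDHA9 too (adjusted p = 0.0661). By array, HepG2 day 24 gave 2 without untreated replicate 2 and 1 without day 24 replicate 2, SNU398 day 3 gave 5 without day 3 replicate 2, SNU398 day 17 gave 1 without untreated replicate 1 or day 17 replicate 2, and SNU475 day 31 gave 2 without day 31 replicate 1. Differences in effect gave 2 for SNU398 minus HepG2 without HepG2 untreated replicate 2, 1 for SNU475 minus HepG2 without either untreated HepG2 array, and for SNU475 minus SNU398 0 without SNU475 untreated replicate 2 and 1 without SNU475 or SNU398 untreated replicate 1. Later days gave 1 in HepG2 without day 3 replicate 1 and 3 in SNU398 without replicate 1 of day 3 or day 10. Of the 34 calls against untreated cells, 20 missed the threshold in at least 1 fit with an array left out, among them PCDHB8 at day 56 and PCDHB14 at day 24 in SNU475. Arrays with the same replicate number deviated together in 1 of 28 comparisons at a correlation over 0.1 (-0.129 to 0.165). The labels state no pairing, and these correlations cannot show whether such arrays shared a culture. A replicate block gave 35 calls over all treated groups (34) and ended none of the 17 named calls. Day 31 in place of day 10 as the earlier day for SNU475 day 56 was added after seeing the data.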

Other observations

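Without a filter on dim probes, further members that were never above background on both arrays of a group were called. The shares of all probes called were then 14.6%, 15.6%, 15.2% and 7.5% in SNU398 at days 3, 10, 17 and 24. In HepG2 they were 14.8%, 11.4% and 10.6% at days 10, 17 and 24. For SNU398, treatment and set of arrays cannot be told apart in these calls. PCDHB13 was higher in SNU398 at days 3, 10, 17 and 24, by 0.51, 0.54, 0.67 and 0.68 on the log2 scale. PCDHB12 was higher in SNU398 at day 10 by 0.57 and at day 24 by 0.59. PCDHA13 in SNU398 at day 3 was at 0.50, PCDHGA3 in SNU398 at day 17 at 0.56 and PCDHGA10 in HepG2 at day 10 at 0.52. A second PCDHGB6 probe was at -0.53 in HepG2 at day 17 and at -0.48 at day 24.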
